A study of Sus scrofa with 20 samples.

Results

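EN1, LMX1B and SP8 are 3 transcription factor genes that pattern the limb from its upper to its lower surface. They were chosen by symbol, and each symbol matched 1 of the 19280 Ensembl pig genes in the deposited RNA-seq table (EN1, ENSSSCG00000015715; LMX1B, ENSSSCG00000035968; SP8, ENSSSCG00000031078). The table covers skin of 5 wild-type female Yorkshire pigs, each giving 1 biopsy of the sole (volar in the labels), of the upper foot (dorsal in the labels), of the snout and of the flank, with no treatment named. The 12 libraries of the pigs aged 4, 7 and 8 months are called the first set and the 8 libraries of the pigs aged 5 and 6 months the second set, after their library numbers. The study compared plantar skin with trunk, snout and dorsal foot skin. Levels are CPM, the counts of a gene per 1e+06 counts of its library, scaled by the trimmed mean of M-values (TMM) over all 20 libraries.

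In the limb bud of the mouse, the ectoderm of the upper side secretes WNT7A, which turns on LMX1B, a LIM-homeodomain factor, in the mesenchyme beneath it. EN1, a homeodomain factor of the lower ectoderm, represses WNT7A there, and in mouse foot pads it is also needed for eccrine sweat glands. SP8 is a zinc finger factor of limb ectoderm that, with its relative SP6, is needed in the mouse for the ridge at the tip of the bud and for EN1 itself. In people, LMX1B is the gene of nail-patella syndrome.

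Sites of the first set are those of the labels. The labels of the second set go against expression, so its libraries were placed by expression match, and both names are given. The libraries labelled flank were placed with sole, those labelled snout with upper foot, those labelled volar with snout and those labelled dorsal with flank. The match was recomputed here without EN1, LMX1B, SP8 and every limb or gland gene listed below. All 8 second-set libraries were again closest to the site given by this placement, with r between 0.77 and 0.87 over 2000 genes. The margin was wide for the libraries placed with sole and snout, whose next site had r of at most 0.05. It was narrower between flank and upper foot, where the next site had r of 0.62 to 0.75. Results for 5 pigs rest on this placement, so the values of the 3 members within each set are given beside them, and for the gene lists the counts within each set. A test within the second set compares the same libraries whatever they are called.

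Libraries held 34077861 to 66906489 counts. For the second set, marker genes of the sites are no independent check, since they were not left out of the match. The genes HOXC8, HOXC9 and HOXC10, listed as trunk markers, summed to 0 to 0.0149 CPM in snout and 14.2 to 23.7 CPM in flank. They were also present in the foot, at 4.68 to 8.28 CPM in sole and 6.84 to 9.98 CPM in upper foot. Hair follicle markers (6 of 7 in the table) summed to 2.31 to 31.5 CPM in sole, against at least 308 CPM in every other library.

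EN1 was highest in sole in every pig. Its level was 14.8, 11.6 and 9.14 CPM in the sole libraries of the 4-, 7- and 8-month pigs, and 19.99 and 14.7 CPM in those of the 5- and 6-month pigs, which are labelled flank. It was 1.05, 0.880 and 0.728 CPM in first-set upper foot and 1.498 and 1.09 CPM in the second-set libraries placed there (labelled snout). No sole library overlapped with any other library, the highest of which was at 3.36 CPM. Snout had 0.891, 0.279 and 0.428 CPM in the first set and 0.744 and 0.542 CPM in the second (labelled volar). Flank was the most variable of the low sites, with 0.347, 0.675 and 1.64 CPM in the first set and 3.36 and 1.38 CPM in the second (labelled dorsal), on 15 to 191 counts. Across the 5 pigs EN1 averaged 14.0 ± 4.1 CPM in sole, 1.05 ± 0.29 CPM in upper foot, 0.577 ± 0.244 CPM in snout and 1.48 ± 1.17 CPM in flank (SD, n = 5 each).

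In the fit of 5 pigs EN1 was higher in sole than in upper foot (log2 fold change 3.73 ± 0.41, SE; adjusted p = 1.04e-06, edgeR's quasi-likelihood test with Benjamini-Hochberg adjustment over 15275 genes). Within sets the same comparison gave 3.73 ± 0.57 in the first set (adjusted p = 0.00107) and 3.74 ± 0.47 in the second (adjusted p = 0.00113). The contrast was as large in both sets. Against flank the log2 fold change was 3.33 ± 0.40 over 5 pigs (adjusted p = 2.32e-06), with 3.72 ± 0.57 in the first set and 2.85 ± 0.45 in the second. Against snout it was 4.57 ± 0.43 (adjusted p = 5.84e-07), with 4.47 ± 0.59 and 4.73 ± 0.50 in the first and the second set. The first-set call against snout was lost without the 7-month pig (adjusted p = 0.0565).

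Among the other 3 sites, flank and upper foot were not separated for EN1. Upper foot minus flank was -0.40 ± 0.38 (95% interval -1.20 to 0.40, adjusted p = 0.732), and upper foot minus snout was 0.83 ± 0.39 (0.01 to 1.65, adjusted p = 0.141). EN1 was lower in snout than in flank (-1.24 ± 0.39, adjusted p = 0.0244). That call was absent in the first set alone (-0.75 ± 0.54, adjusted p = 0.405) and was lost when the 5-, 6-, 7- or 8-month pig was left out, with adjusted p up to 0.153.

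**Figure D1:**
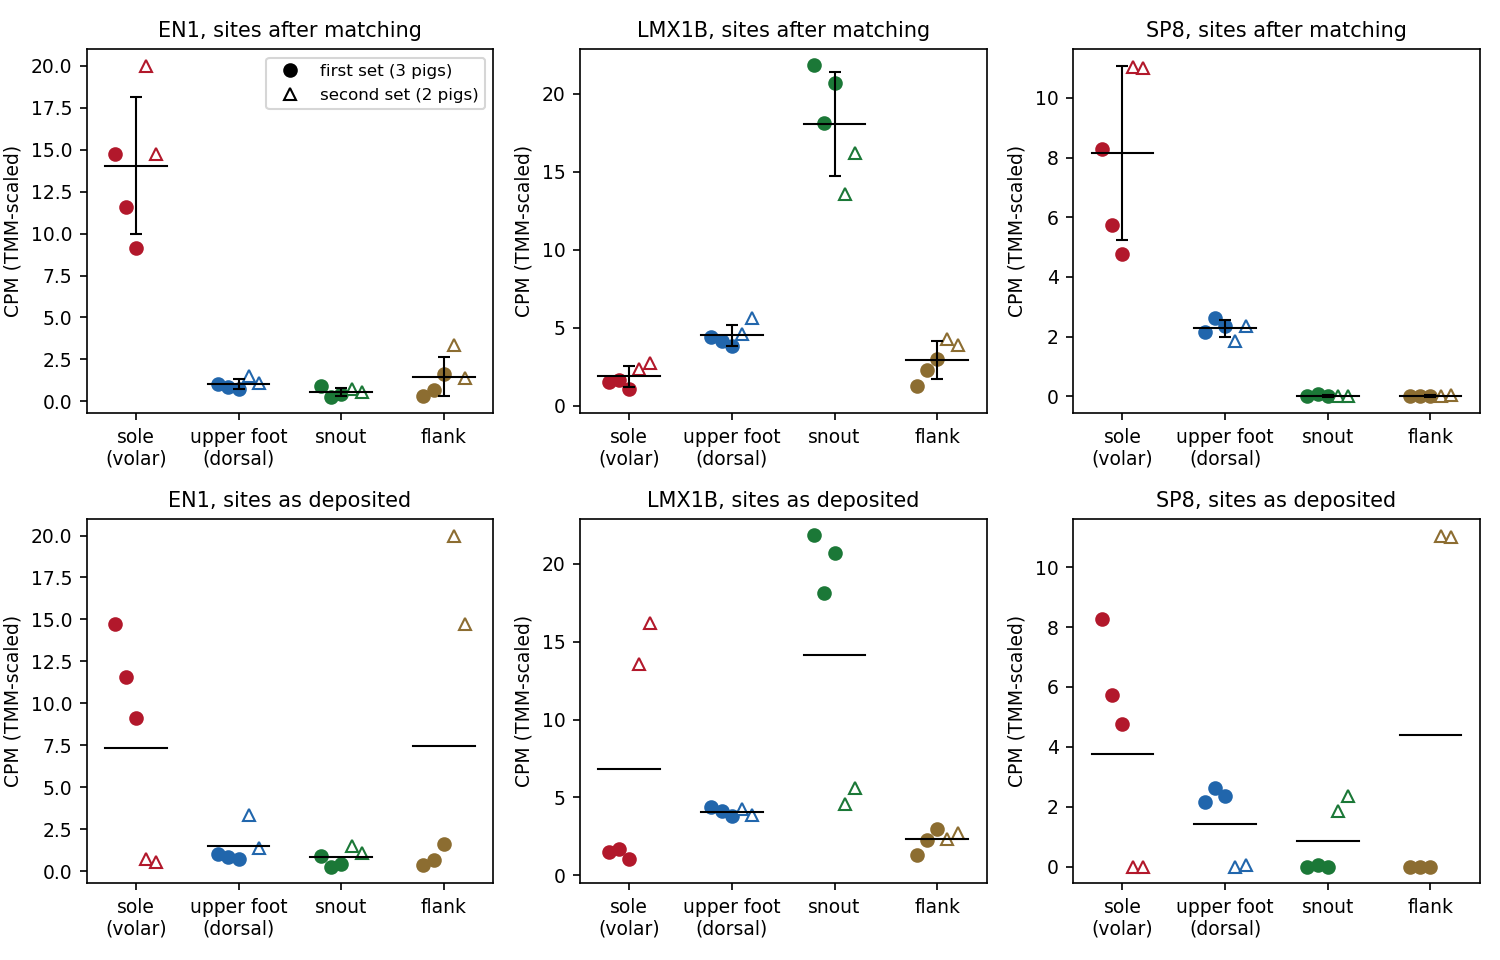
EN1, LMX1B and SP8 in each of 20 libraries, in TMM-scaled CPM, by site after placement of the second set (upper row) and by deposited label (lower row); filled circles are first-set and open triangles second-set libraries, horizontal lines are means and vertical bars in the upper row SD (n = 5). After placement EN1 lies between 9.14 and 19.99 CPM in sole and at most at 3.36 CPM elsewhere, while by deposited label the 2 second-set libraries labelled flank (19.99 and 14.7 CPM) stand apart from the first-set flank libraries.

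LMX1B was highest in snout and lowest in sole, and its widest gap lay between those sites rather than within the foot. Snout libraries had 21.8, 18.1 and 20.7 CPM in the first set (pigs of 4, 7 and 8 months) and 13.6 and 16.2 CPM in the second (5 and 6 months, labelled volar). Upper foot had 4.38, 4.12 and 3.84 CPM in the first set and 4.60 and 5.59 CPM in the second (labelled snout). Every snout library was above every other library. Sole had 1.48, 1.66 and 1.08 CPM in the first set and 2.36 and 2.74 CPM in the second (labelled flank), all below the lowest upper foot library. Flank had 1.28, 2.29 and 2.96 CPM in the first set and 4.24 and 3.85 CPM in the second (labelled dorsal), which overlaps with both foot sites.

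Within the foot, LMX1B was lower in sole than in upper foot, at 1.87 ± 0.67 CPM in sole and 4.50 ± 0.67 CPM in upper foot (SD, n = 5 each). The log2 fold change was -1.31 ± 0.25 over 5 pigs (adjusted p = 0.000376), -1.54 ± 0.28 in the first set (adjusted p = 0.00294) and -0.99 ± 0.22 in the second (adjusted p = 0.011). The first-set call did not hold without the 7-month pig (adjusted p = 0.0533). Snout was above all other sites, with -3.36 ± 0.27 for sole minus snout (adjusted p = 9.45e-08), -2.05 ± 0.25 for upper foot minus snout (adjusted p = 1.46e-05) and 2.71 ± 0.26 for snout minus flank (adjusted p = 6.87e-07). The snout differences were wider in the first set, at -3.84 ± 0.30, -2.30 ± 0.28 and 3.21 ± 0.29, than in the second, at -2.54 ± 0.23, -1.55 ± 0.21 and 1.86 ± 0.22. The test of that gap between sets did not pass for sole minus snout (site by set interaction in edgeR, adjusted p = 0.145), where 0.267% of all genes were called.

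Upper foot and flank could not be separated for LMX1B after adjustment (0.66 ± 0.25, 95% interval 0.14 to 1.18, adjusted p = 0.217), in a comparison in which 1.42% of all genes were called. Sole and flank were close to the threshold. Sole minus flank was -0.65 ± 0.25 over 5 pigs (adjusted p = 0.0366), but the fit with the pig as block gave -0.65 with adjusted p = 0.0537, and the first set alone gave -0.63 ± 0.28 (adjusted p = 0.108). Over the 14 alternatives with placed sites the adjusted p of the 5-pig fit reached 0.177.

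SP8 was found in the foot and almost nowhere else. Sole libraries held 327, 223 and 245 counts in the 4-, 7- and 8-month pigs and 316 and 240 counts in the 5- and 6-month pigs (labelled flank). Upper foot libraries held 141, 200 and 116 counts in the first set and 117 and 106 counts in the second (labelled snout). All 10 foot libraries were thus above 100 counts. Snout had 5 counts in the 7-month pig and 0 in the other 4 libraries, and flank had 2 counts in the 6-month pig (labelled dorsal) and 0 in the other 4. A count of 0 allows up to 3 counts, or 0.0446 to 0.0814 CPM in the snout and flank libraries with no count, for counting error only.

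In CPM, SP8 was at 8.28, 5.74 and 4.75 in first-set sole and 11.05 and 10.999 in second-set sole, against 2.15, 2.63 and 2.35 in first-set upper foot and 1.86 and 2.37 in second-set upper foot. The sites did not overlap. Over 5 pigs the log2 fold change of sole minus upper foot was 1.80 ± 0.46 (adjusted p = 0.00335), with 2.39 ± 0.47 in the second set (adjusted p = 0.00953). In the first set it was 1.40 ± 0.58, which missed the threshold (adjusted p = 0.117, or 0.00122 in DESeq2 and 0.00789 in limma-voom). The alternatives, run in edgeR, DESeq2 or limma-voom, reached an adjusted p of 0.338 in the first set. In the second set they reached 0.0581, so the call there was not kept in all of them. With plain totals in place of TMM scaling the fold over 5 pigs was 0.97 ± 0.46 (adjusted p = 0.0603), a setting that shifted the median of all genes by -0.81, so that SP8 stood 1.80 above the median gene with plain totals and 1.83 with TMM. Against flank, first-set sole was at least 356-fold higher and first-set upper foot at least 139-fold higher (3 counts taken over the flank group). Over 5 pigs, with 2 flank counts, the ratio to flank was 1010 in sole (exact 95% interval 279 to 8350) and 307 in upper foot (84.7 to 2540). These comparisons passed with adjusted p of 2.23e-08 for sole and 3.67e-05 for upper foot, where SP8 ranked 2nd of all genes by p. Against snout the ratio was 445 in sole (190 to 1370, adjusted p = 9.41e-08) and 135 in upper foot (57.7 to 418, adjusted p = 1.32e-06). The first-set call for upper foot minus flank (adjusted p = 0.0213) was lost whichever pig was left out, with adjusted p of 0.105 to 0.363, and in the second set that comparison gave adjusted p = 0.103, or 6.78e-07 in DESeq2.

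**Figure D2:**
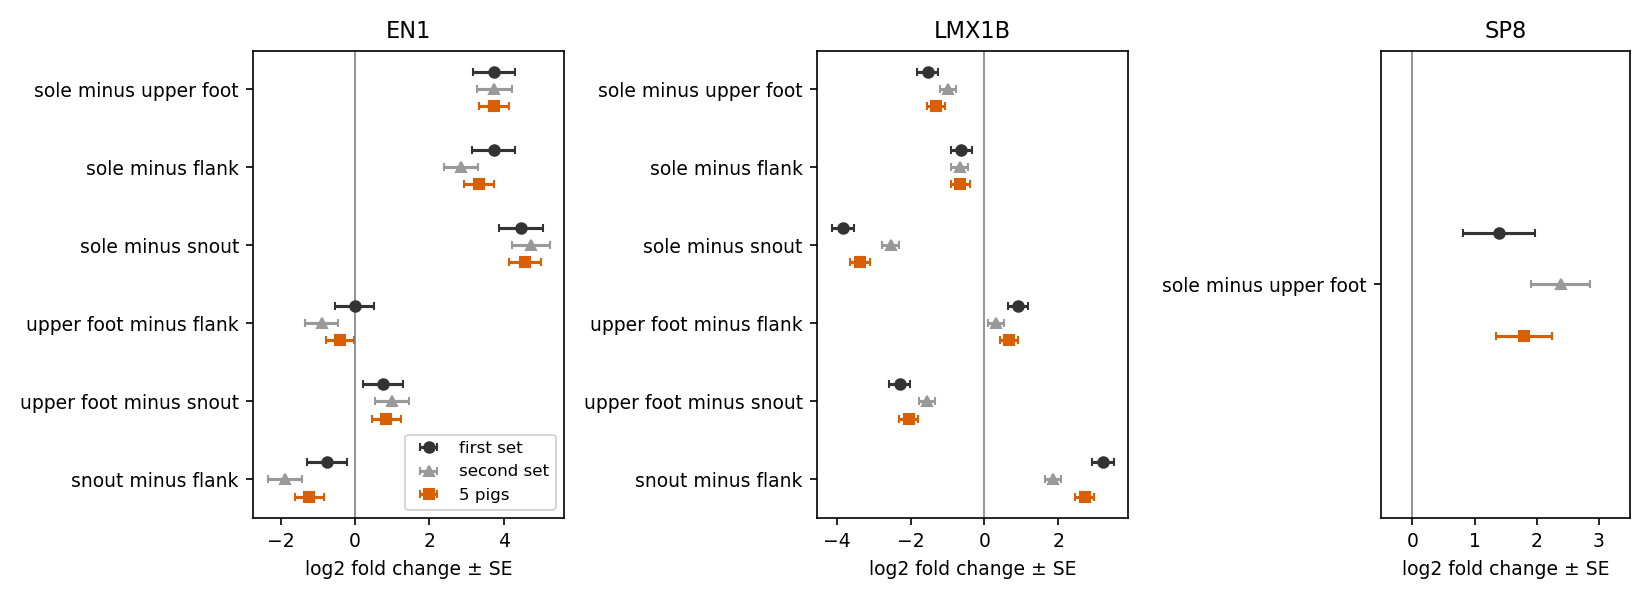
Log2 fold changes ± SE of EN1 and LMX1B for the 6 pairs of sites and of SP8 for sole minus upper foot, in the first set (black circles, 3 pigs), the second set with placed sites (grey triangles, 2 pigs) and all 5 pigs (orange squares). EN1 lies at 3.73, 3.74 and 3.73 for sole minus upper foot in the 3 fits, and LMX1B is below 0 in every comparison of sole with another site; SP8 is not drawn against snout and flank, where it had 5 and 2 counts.

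Called members are best read against how many genes differ between these skins at all. Between sole and upper foot all 3 members were called over 5 pigs, where 48.9% of all genes were, 2 of 3 in the first set (24.1% of genes) and 3 of 3 in the second (42.9%). Between sole and flank the 5-pig fit called all 3 (55.0% of genes), the first set 2 (32.9%) and the second set 3 (46.7%). Between sole and snout each fit called all 3 (39.7% of genes over 5 pigs, 11.6% in the first set and 38.5% in the second). Between upper foot and snout LMX1B and SP8 were called in each fit (22.2%, 7.92% and 10.2%). Between snout and flank the 5-pig fit called EN1 and LMX1B (28.9% of genes), the first set LMX1B alone (13.2%) and the second set both (13.0%). Between upper foot and flank SP8 alone was called, over 5 pigs (1.42%) and in the first set (0.131%), and no member was called in the second set (0.0393%).

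The order within each pig needs no site name. In all 5 pigs the library with the highest EN1 was also the one with the highest SP8, and EN1 there was 5.59 to 14.0 times the next library of that pig. In 4 of 5 pigs it also had the lowest LMX1B; in the 4-month pig the flank library was lower, at 1.28 CPM, than the sole library, at 1.48 CPM. The library with the highest LMX1B had 2.89 to 5.39 times the LMX1B of the next one in the same pig.

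The ratio of EN1 to LMX1B counts inside a library is free of scaling between libraries, and it set sole apart from the other sites. EN1 had 9.94, 6.98 and 8.47 counts per LMX1B count in first-set sole and 8.47 and 5.37 in second-set sole, against 0.240, 0.214 and 0.190 in first-set upper foot and 0.326 and 0.196 in second-set upper foot. Only the sole libraries had more EN1 than LMX1B counts. On a log2 scale the ratio averaged 2.94 ± 0.34 in sole, -2.13 ± 0.32 in upper foot, -5.06 ± 0.74 in snout and -1.26 ± 0.65 in flank (SD, n = 5 each). Upper foot (-2.40 to -1.62) and flank (-1.88 to -0.34) overlapped, but their means differed by -0.87 (two-sided exact permutation p = 0.0238, adjusted p = 0.0238 over 6 comparisons). The difference had the same sign in 5 of 5 pigs, with an exact permutation p of 0.0625 when signs were exchanged within pigs. In the first set it was -0.73 (exact permutation p = 0.1). The 5-pig values rest on the placement between flank and upper foot, where the margin was narrower. Sole and upper foot differed by 5.07 (two-sided exact permutation p = 0.00794, the smallest that 5 against 5 libraries allow; adjusted p = 0.00953 over 6 comparisons). That test exchanges libraries across pigs; with signs exchanged within pigs, which respects the pairing, the exact permutation p was 0.0625, the smallest that 5 pigs allow, and the difference had the same sign in 5 of 5 pigs (SD of the 5 differences 0.35). In the first set the difference was 5.29, with the smallest p that 3 against 3 libraries can give (exact permutation p = 0.1). The gene lengths behind the 2 counts differ, so the ratio compares libraries and is no molar ratio. SP8 ran differently against EN1 in the foot, with 0.494 to 0.748 SP8 counts per EN1 count in sole and 1.24 to 3.22 in upper foot.

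**Figure D3:**
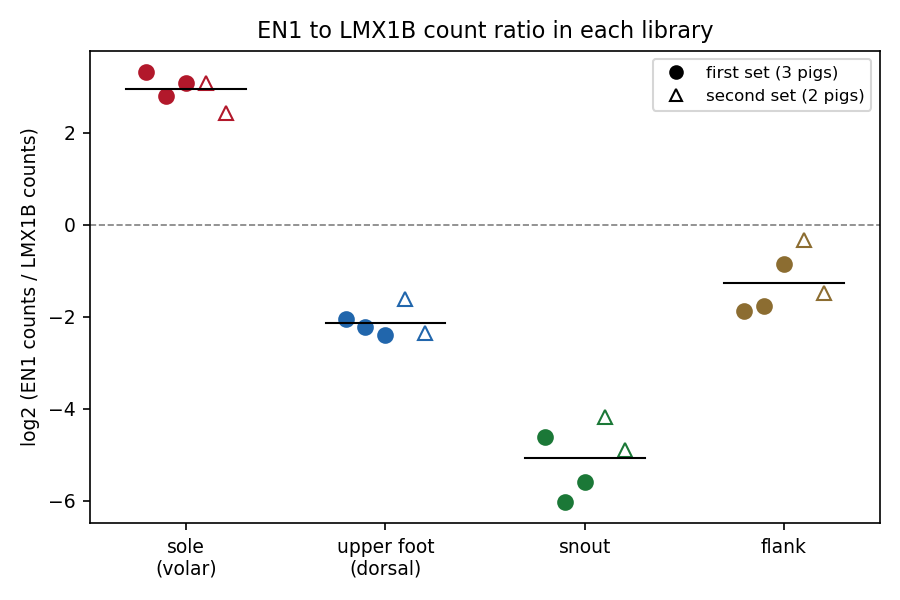
Log2 ratio of EN1 to LMX1B counts in each library by site after placement (filled circles first set, open triangles second set, lines are means of 5). Sole libraries lie between 2.42 and 3.31 and all other libraries below 0, with snout lowest at -4.19 to -6.02.

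Biopsies hold several cell types, and in bulk RNA fewer cells of a type and less RNA per cell cannot be told apart. Basal keratinocyte markers (3 of 5 in the table) summed to 3160 to 3990 CPM in sole, 1490 to 2160 CPM in upper foot, 1720 to 3020 CPM in snout and 1110 to 1930 CPM in flank. The sum was carried by COL17A1 and ITGA6 (2660 and 793 CPM in sole, 1180 and 341 CPM in upper foot), while KRT15 went the other way (4.84 CPM in sole and 287 CPM in upper foot). The part of basal keratinocytes in the EN1 and SP8 results was not tested. Differentiated keratinocyte markers (4 of 7) reached 241000 to 569000 CPM in sole, against 10300 to 25600 CPM in the other sites, mostly from KRT1 and KRT10; KRT2 was lower in sole (229 CPM) than in upper foot (3430 CPM) and flank (2470 CPM). Dermal fibroblast markers (7 of 8) summed to 6220 to 37600 CPM in sole, 28500 to 82300 CPM in upper foot, 22100 to 50700 CPM in snout and 102000 to 230000 CPM in flank. They were lower in sole than in upper foot of the same pig in 5 of 5 pigs, as LMX1B was, and their part in that difference was not tested. Skeletal muscle markers (7 of 10) stood at 6620 CPM in the 7-month snout library and 3130 and 4510 CPM in the second-set libraries placed with snout, against 5.84 and 5.94 CPM in the 4- and 8-month snout libraries. LMX1B was at 13.6 to 18.1 CPM in the snout libraries with muscle markers and at 20.7 and 21.8 CPM in those without, and the part of muscle in that gap was not tested.

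**Figure D4:**
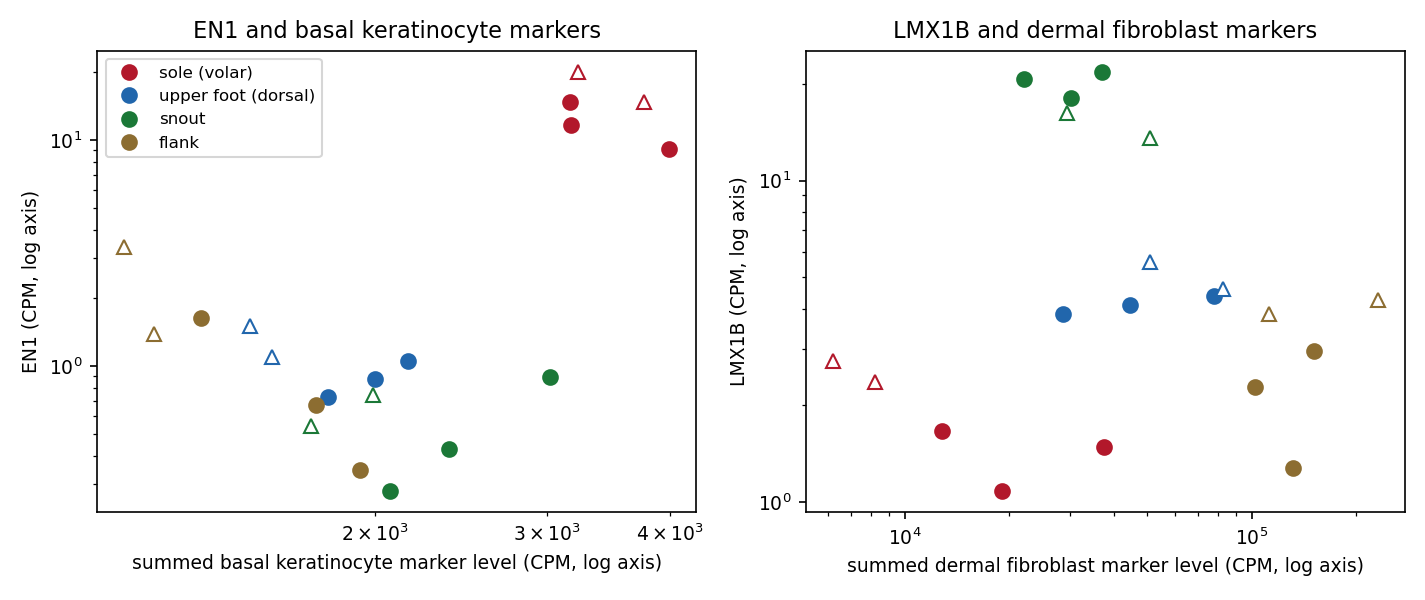
EN1 against summed basal keratinocyte markers (left) and LMX1B against summed dermal fibroblast markers (right), 1 point per library, both axes in CPM on log scales, colours by site after placement, open triangles second set. Sole libraries stand apart at 9.14 to 19.99 CPM of EN1, and snout libraries at 13.6 to 21.8 CPM of LMX1B lie within the fibroblast marker range of upper foot and sole.

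Genes most like each member were found from log2 CPM over the 20 libraries without site names, among 13338 genes with a symbol, and are given as a description. The libraries share pigs and sites, so high correlations are common. SP8 was most like HOXC11, a homeobox gene of posterior body regions (Pearson r = 0.981; 0.99 in the first and 0.983 in the second set), which was at 4.41 CPM in sole, 1.73 CPM in upper foot, 0 in snout and 0.151 CPM in flank. It was followed by the integrin gene ITGB8 (0.908), the glutamine transporter gene SLC38A1 (0.905), CDC73 of the PAF1 transcription complex (0.904) and PLEKHG3 (0.901). EN1 was most like DHRS7, a short-chain dehydrogenase gene (0.964; 202 CPM in sole and 85.1 CPM in upper foot), OTULINL (0.953), SMTN, which encodes the smooth muscle protein smoothelin (0.942), NDUFA4L2 (0.942) and SLC38A11 (0.936; 3.29 CPM in sole and 0.373 CPM in upper foot). LMX1B was most like PADI1, a deiminase gene of cornifying epithelium (0.962; 5.15 CPM in sole, 21.6 CPM in upper foot, 579 CPM in snout and 15.6 CPM in flank), and CRNN, which encodes cornulin of mucosal epithelium (0.956; 3.35, 13.1, 414 and 6.27 CPM in that order of sites). SLC9A2 (0.929), the facial mesenchyme gene ALX4 (0.922; 6.02 CPM in snout) and GABRG1 (0.917) came next. Among the members r was 0.79 for EN1 and SP8, -0.60 for EN1 and LMX1B and -0.56 for LMX1B and SP8, and each pair had the same sign in each set.

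The signals that act upstream of the members in the limb bud were counted next, for sole minus upper foot over 5 pigs, where 24.7% of all genes were higher and 24.2% lower and the median gene was at -0.03. These counts depend on scaling, since plain totals shift the median gene by -0.81; the values to read are those relative to it. Of 20 dorsoventral signal and receptor genes, 6 rose and 10 fell (median -0.24), with 3 and 5 in the first set (14.0% and 10.1% of genes) and 1 and 14 over 5 pigs with plain totals. WNT7A was low everywhere and higher in sole, at 1.49 ± 0.64 CPM in sole and 0.624 ± 0.252 CPM in upper foot (SD, n = 5 each; log2 fold change 1.28 ± 0.28, adjusted p = 0.000998), with adjusted p = 0.0523 in the first set and 0.133 with plain totals. WNT10A, a ligand of skin appendages, rose with it (1.27 ± 0.18, adjusted p = 1.80e-05). BMP4, a ligand that induces EN1 in the chick and mouse bud along with other BMPs, was lower in sole (-2.26 ± 0.33, adjusted p = 2.53e-05; 3.87 against 18.9 CPM), as were the BMP signal carrier gene SMAD1 (-1.15 ± 0.17) and WNT3, which starts ridge formation in the mouse (-1.24 ± 0.23). Another ligand gene, BMP7, was higher in sole (1.00 ± 0.20, adjusted p = 0.000418, or 0.0612 in the first set), at 110 ± 32 against 55.4 ± 8.2 CPM (SD, n = 5 each). The receptor gene BMPR1B was higher there too (1.22 ± 0.24, adjusted p = 0.000355, or 0.0193 in the first set). With plain totals neither was called, at 0.16 for BMP7 (adjusted p = 0.367) and 0.41 for BMPR1B (adjusted p = 0.132). WNT10A, BMP4, SMAD1 and WNT3 also passed in the first set.

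Of 15 genes of the apical ridge ectoderm 11 passed the filter on low counts, and 4 rose and 2 fell (median 0.23), against 2 and 6 with plain totals (median -0.58). The homeobox genes DLX5 and DLX6, which work in the ridge, rose most (2.58 ± 0.28 and 3.40 ± 0.39, adjusted p = 8.46e-07 and 1.85e-06). DLX5 stood at 17.6 ± 6.9 CPM in sole and 2.85 ± 0.57 CPM in upper foot, and DLX6 at 5.81 ± 3.24 CPM in sole and 0.524 ± 0.172 CPM in upper foot (SD, n = 5 each). Neither was confined to the foot, with DLX5 at 6.66 ± 2.55 CPM and DLX6 at 1.41 ± 0.48 CPM in snout. CD44, an adhesion receptor gene, rose less (0.67 ± 0.10; -0.13 and not called with plain totals) and MSX2, a BMP target, fell (-1.95 ± 0.35, adjusted p = 0.000185). SP6, the partner of SP8 in the mouse, was not called (-0.10 ± 0.31, adjusted p = 0.812). The ridge ligand gene FGF4 had no count in any library, and FGF8 and FGF17 were left out by the filter.

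Paralogs of the members moved in both directions. LMX1A had 3 counts over the 5 sole libraries and averaged 0.0116 CPM in sole, 0.806 CPM in upper foot, 0.785 CPM in snout and 2.86 CPM in flank, where it was highest (sole against upper foot, adjusted p = 8.85e-06). EN2 was near its floor everywhere, at 0.0160 CPM in sole and 0.0671 CPM in upper foot, and was not tested. SP5, a WNT target, was at 0.307 CPM in sole, 1.54 CPM in upper foot and 4.28 CPM in flank (sole minus upper foot -2.33 ± 0.44, adjusted p = 0.000303), and SP4 (-1.11 ± 0.15) and the widely expressed SP3 (-0.36 ± 0.09) were lower in sole too, SP3 with adjusted p = 0.0549 in the first set. Of the 6 paralogs tested 1 rose, SP2 (0.78 ± 0.21, adjusted p = 0.00501), and 4 fell; with plain totals 0 rose and 5 fell. Of 10 genes for partners and relatives of LIM-homeodomain factors 0 rose and 5 fell over 5 pigs (median -0.43), and none was called in the first set. LDB1, the cofactor that LIM-homeodomain factors bind, was lower in sole (-0.48 ± 0.13, adjusted p = 0.00626; 0.194 in the first set), as was LHX2, a relative of hair follicle stem cells (-2.83 ± 0.69, adjusted p = 0.0026; 0.0759 in the first set), the cofactor gene SSBP4 (-0.43 ± 0.14) and LHX9 (-1.34 ± 0.51).

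Genes of the other limb axes and of the downstream tissues were mixed. Of 8 anteroposterior genes 2 rose and 2 fell (median -0.54), with TBX3 higher in sole (1.41 ± 0.18, adjusted p = 6.15e-06; 32.2 against 12.2 CPM, and 44.5 CPM in snout), SALL1 higher (1.97 ± 0.49) and the hedgehog targets PTCH1 (-0.81 ± 0.11) and GLI1 (-2.98 ± 0.52) lower. Of 13 limb mesenchyme genes 1 rose and 4 fell (median -0.59). MEIS1, which marks the proximal limb (the part nearest the trunk) in the embryo, was the gene that rose (1.86 ± 0.21, adjusted p = 1.83e-06, 36.7 against 10.0 CPM). SHOX2 (-1.35 ± 0.25), IRX5 (-1.64 ± 0.37) and FGF10 (-1.89 ± 0.54) fell, the last pair with adjusted p of 0.0667 and 0.111 in the first set. Of 15 eccrine gland genes 3 rose and 9 fell (median -1.82). The ammonium transporter gene RHCG (5.25 ± 0.34, adjusted p = 4.40e-09, 608 ± 177 against 15.6 ± 3.9 CPM) was higher in sole. So was the water channel gene AQP5 (7.47 ± 0.68, adjusted p = 1.61e-07, 2720 ± 2000 against 12.9 ± 4.5 CPM, SD, n = 5 each). Elsewhere RHCG averaged 7.26 CPM in snout and 5.69 CPM in flank, and AQP5 62.2 CPM in snout and 12.7 CPM in flank. The gland regulator FOXC1 (-3.08 ± 0.30) and the chloride channel gene CFTR (-5.20 ± 0.69) were lower in sole. Of 7 kidney and matrix genes listed as LMX1B targets from mouse work, 1 rose and 4 fell (median -1.15). The fallers included DCN (-1.66 ± 0.33, adjusted p = 0.000532), LUM (-0.86 ± 0.26, adjusted p = 0.0113; 0.133 in the first set) and COL4A4 (-2.57 ± 0.56, adjusted p = 0.00101; 0.0585 in the first set), a basement membrane collagen gene. DCN and LUM are also among the fibroblast markers that were lower in sole, and both were highest in flank (4810 and 1160 CPM). LMX1B averaged 2.93 CPM in flank, between its sole (1.87 CPM) and upper foot (4.50 CPM) levels. The part of LMX1B in the DCN and LUM differences was not tested. CD2AP, a gene of the kidney filter, was the one that rose (0.34 ± 0.11, adjusted p = 0.0134), and it was lower with plain totals (-0.48).

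Within sets the counts of sole minus upper foot were smaller for most lists. In the first set 3 of 11 ridge genes rose and 1 fell, 0 and 3 of 6 paralogs, 2 and 2 of 8 anteroposterior genes, 1 and 1 of 13 limb mesenchyme genes, 3 and 9 of 15 eccrine genes and 0 and 1 of 7 kidney and matrix genes. In the second set, where 20.4% of all genes were higher and 22.6% lower, 4 of 20 dorsoventral signal genes rose and 8 fell, with 3 and 2 of 11 ridge genes, 1 and 4 of 6 paralogs and 0 and 4 of 10 LIM partners. There 1 of 8 anteroposterior genes rose and 3 fell, with 1 and 7 of 12 limb mesenchyme genes, 3 and 8 of 15 eccrine genes and 1 and 3 of 7 kidney and matrix genes.

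Between upper foot and flank, where 0.570% of genes were higher and 0.851% lower over 5 pigs, 0 of the 20 dorsoventral signal genes, 0 of the 6 paralogs and 0 of the 7 kidney and matrix genes were called. Of the 13 limb mesenchyme genes 3 rose and 1 fell. HOXA11, a gene of the middle limb segment, was at 4.61 ± 1.13 CPM in upper foot and 0.295 ± 0.253 CPM in flank (log2 fold change 3.99 ± 0.63, adjusted p = 0.0029), and HOXD11 at 3.08 ± 0.50 CPM in upper foot and 1.07 ± 0.40 CPM in flank (1.53 ± 0.37, adjusted p = 0.0487; SD, n = 5 each). HOXD12, with 88 counts in upper foot and 1 in flank, passed too (adjusted p = 0.00926), while MEIS1 was lower in upper foot (-1.28 ± 0.21, adjusted p = 0.00389). The ridge and face gene MSX1 (1.12 ± 0.20), PTCH1 (0.50 ± 0.11) and RHCG (1.49 ± 0.30, adjusted p = 0.0153) were higher in upper foot. Of the genes of all 8 lists, RHCG alone was called in the first set (adjusted p = 0.0266) and none in the second, so the HOX, MEIS1, MSX1 and PTCH1 calls rest on the placement of second-set libraries between flank and upper foot, where its margin was narrower. In the first set the adjusted p was 0.11 for HOXA11, 0.607 for HOXD11, 0.22 for HOXD12 and 0.0712 for MEIS1.

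**Figure D5:**
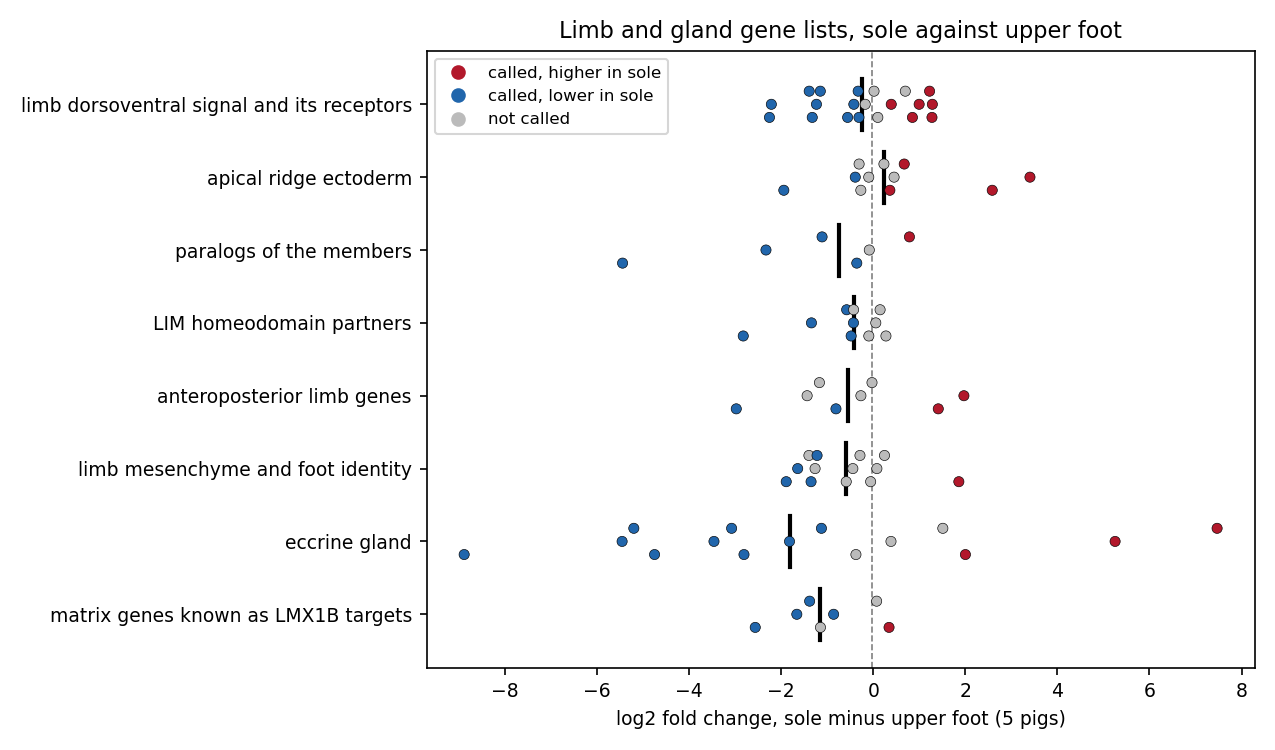
Log2 fold changes for sole minus upper foot over 5 pigs of the tested genes of 8 lists, 1 point per gene (red called and higher in sole, blue called and lower, grey not called), with list medians as black bars and the median of all genes as a dashed line. Eccrine gland genes spread furthest, from FOXA1 at -8.89 on the left to RHCG at 5.25 and AQP5 at 7.47 on the right, with a list median of -1.82.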

How the data were processed

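Per the labels' protocols, libraries were stranded TruSeq mRNA. The authors deposited 1 table of estimated counts by Ensembl pig gene; the submitters' processing notes name Salmon. As the sources used here give neither version, build nor annotation, coordinates are left out. Estimated counts (42.2% not whole, tolerance 1e-09) were rounded before testing. Of 19280 identifiers 14821 matched a symbol.

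Comparisons used edgeR 4.0.16 (robust quasi-likelihood F test, TMM, filterByExpr with count minimum 10 and total minimum 15, adjusted p under 0.05 over all genes) in R 4.3.3, on site means in the first set (15302 genes) and the second (15280), and on placed sites with a set term over 5 pigs (15275). Intervals of differences use the fit's degrees of freedom. Correlations used log2 CPM with 0.5 added. The fits were also run on simulated counts, drawn independently for each library. Those counts held no correlation between libraries of the same pig, so this check does not cover the pairing. Alternatives were DESeq2 1.42.0, limma-voom 3.58.1, other scalings and filters, the pig as block, each pig left out and the deposited labels. Totals without scaling, and the exchange of signs within pigs for the EN1 to LMX1B ratio, were added after seeing the data.

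The 4 sites of a pig share the animal per the labels, which pairs the libraries. Deviations from the site mean correlated between libraries of 1 pig, with a median of 0.22 over 18 first-set pairs (-0.01 to 0.43) and 0.31 over 12 second-set pairs (0.11 to 0.44). The members and gene lists were chosen with earlier results of these data known. Named were the members, the 5 genes most like each, and up to 4 called genes per list with the smallest adjusted p for sole minus upper foot, with EN2, LMX1A and WNT7A in any case. SP2, SP6, BMP7, BMPR1B, FOXA1, the FGF genes and those called between upper foot and flank were named after their values were seen. Floors and counting intervals cover counting error only.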

Additional observations from a re-analysis of the deposited data

Results flagged for a closer look

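A single library stood apart for SP8 in each of 2 groups of 5. The 7-month snout library had 0.0698 CPM (5 counts) and the 6-month library placed with flank (labelled dorsal) 0.0522 CPM (2 counts), while the other libraries of both groups had 0. No chance rate can be put on such a gap here, since with 4 libraries at 0 any count stands apart.

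By deposited label the contrasts of the second set differed from those of the first by a test of the difference itself (site by set interaction, edgeR, 15735 genes). Given as second minus first set on the log2 scale, EN1 differed by -5.61 for volar minus dorsal, -8.46 for volar minus flank, -5.47 for volar minus snout, -2.85 for dorsal minus flank and -2.98 for snout minus flank. LMX1B differed by 3.41 for volar minus dorsal, 3.17 for volar minus flank, 5.38 for volar minus snout, 1.96 for dorsal minus snout and -2.21 for snout minus flank. For SP8, whose fitted folds rest on groups without counts, the adjusted p was 9.66e-07 for volar minus flank, 2.12e-05 for volar minus snout, 4.85e-06 for dorsal minus flank, 0.000332 for dorsal minus snout and 0.0164 for snout minus flank. These comparisons called 2.45% to 49.1% of all genes. With placed sites no member passed the same test in any of the 6 comparisons, with the lowest adjusted p at 0.145 (LMX1B, sole minus snout). Hardly any gene did, with 0% to 0.941% of all genes called. Each second-set library was placed with the first-set site it was most like, so likeness between the sets is partly built in. The result is therefore not particular to the members.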

How the results depend on the processing

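Site names are those after placement unless said otherwise, and values are log2 fold changes over 5 pigs. EN1 and LMX1B for sole against upper foot and snout, EN1 for sole against flank, LMX1B for snout against upper foot and flank, and SP8 in both foot sites against snout and flank kept direction and call in the 14 alternatives that used placed sites. With the deposited labels EN1 gave 3.02 for volar minus dorsal, 1.22 for volar minus flank, 3.82 for volar minus snout and -2.59 for snout minus flank; LMX1B gave 0.48, 1.31, -1.43 and 2.74 for the same comparisons and -1.91 for dorsal minus snout; and SP8 gave 1.40, 3.41, 5.37 and -1.96, with 2.01 for dorsal minus flank and 3.97 for dorsal minus snout, none of them called; no gene was called in any comparison under these labels by edgeR, with 714 to 4023 genes at an unadjusted p under 0.05. LMX1B for sole minus flank lost its call in limma-voom (-0.68), with the pig (replicate) as block (-0.65) and without the set term (-0.66), and ranged from -0.80 to -0.48 with a pig left out. Its adjusted p reached 0.177 over the 14 alternatives. With totals only, SP8 for sole minus upper foot was 0.97. EN1 for snout minus flank ranged from -1.81 to -0.89 with a pig left out and for upper foot minus snout from 0.69 to 1.10, where it passed without the 4-month pig. SP8 for snout minus flank turned to -2.32 without the 7-month pig, whose library holds all 5 snout counts, and reached 3.26 at the highest. In the first set EN1 for upper foot minus flank, at -0.0087, changed sign under RLE scaling (0.0039), upper-quartile scaling (0.0014), DESeq2 (0.0056), limma-voom (0.20), totals only (0.13) and without the 8-month pig (0.91; -0.52 at the lowest with a pig left out), and for snout minus flank without that pig (0.16; -1.71 at the lowest). The cause was not tested. The block changed no other call of a member in any of the 3 fits. For the EN1 to LMX1B ratio, pairing by pig gave an exact permutation p of 0.0625 in each of the 6 comparisons over 5 pigs, the smallest it allows.

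Counts of called genes over 5 pigs moved most for upper foot minus flank, from 217 to between 56 (without the 8-month pig) and 624 (DESeq2), with 334 under the block. For upper foot minus snout they moved from 3389 to 2172 without the 7-month and 2241 without the 5-month pig, for sole minus snout from 6067 to 4018 without the 5-month pig and 10656 with totals only, and for sole minus upper foot from 7474 to 11796 with totals only. Upper-quartile scaling turned the split of the last from 3774 higher and 3700 lower to 2963 and 4702, shifting the median gene by -0.12. In the first set counts ran from 1303 to 8726 against 3694 for sole minus upper foot, 2424 to 8044 against 5032 for sole minus flank, 269 to 6083 against 1768 for sole minus snout, 0 to 349 against 20 for upper foot minus flank, 271 to 2044 against 1212 for upper foot minus snout and 501 to 3038 against 2024 for snout minus flank, lowest with a pig left out and highest with DESeq2 or totals only. In the second set, where leaving out a pig was not run, totals only gave 10947 against 6559 for sole minus upper foot and 9973 against 5884 for sole minus snout, and DESeq2 gave 273 against 6 for upper foot minus flank, 2470 against 1551 for upper foot minus snout and 3017 against 1981 for snout minus flank. Low counts limit SP8 in snout and flank, where 7 counts in all decide the sign.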
